A study of Nothobranchius furzeri with 20 samples.

Results

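The 60 genes described here were ranked highest by a rule that looks for low RNA in the brains of young exercised fish. The rule took CPM values (a gene's count scaled by the total of its library, per 1000000 counts) and kept 18153 of 26739 genes, those that averaged 1 CPM or more over 20 libraries. On the scale log2(CPM + 0.5) it then subtracted the highest of the 5 exercised 9-week libraries from the lowest of 14 other libraries, leaving out replicate 8 of the 27-week group, and kept the 60 genes with the highest score. A score above 0 means that every exercised 9-week library lay below all 14 others. The members were thus chosen on exercised 9-week fish against both other groups, and their values in those comparisons are a description.

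The libraries came from the brains of male turquoise killifish (Nothobranchius furzeri) of the strain MZM-04/10p. The 3 groups were 10 libraries of 27 weeks with swim-tunnel exercise, 5 libraries of 9 weeks with swim-tunnel exercise and 5 libraries of 9 weeks with no perturbation. A 27-week group without exercise was not analysed here, so age and exercise are not crossed. Library totals averaged 24058832 ± 3087113 counts at 27 weeks (SD, n = 10), 21288176 ± 7831296 with exercise at 9 weeks (n = 5) and 26326084 ± 3612040 without it at 9 weeks (n = 5), and ranged from 15048627 to 34843199. No label says that each library came from a separate fish, so p-values measure the spread between these libraries, which may be technical.

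The turquoise killifish is an annual fish of African seasonal pools that lives and ages within months, which makes it a model of vertebrate ageing. In a swim tunnel, fish hold their place against a water current, and forced swimming is a form of endurance exercise. Whole-brain RNA mixes neurons, glia, vessels and blood, so fewer cells of a type and less RNA per cell cannot be told apart in these data. The deposited files pair the gene identifiers with no names and 0 of 26739 identifiers matched the RefSeq table of assembly NfurGRZ-RIMD1, so no function can be given for a member. For the same reason the levels of brain cell markers were not analysed here, and no sequence is shown.

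The exercised 9-week libraries were fully separated from the other libraries in few of the members. Of the 60, 15 had a score above 0, and these were the 15 such genes, or 0.0826%, of all 18153. The other 45 had a score at or below 0. With the mean of 1 CPM taken over the 19 libraries without 27-week replicate 8, 11 genes had a score above 0. The rest of the 15 passed the filter only through that library. In 1 of these, ranked 12, exercised 9-week libraries had 0 to 1 counts and unexercised 9-week libraries 1 to 2. The score was 0.34 for the first member, -0.0428 at the median and -0.0691 for the member ranked 60. The gene ranked 61, just outside, stood at -0.0698, and the genes ranked 59 and 58 at -0.0678 and -0.0676. The values therefore run on across the threshold, and most members are genes in which at least 1 other library reached down to the highest exercised 9-week library. In 1 member, ranked 16, all 10 libraries of 9 weeks had 0 counts, so the exercised and unexercised libraries did not differ at all. With 27-week replicate 8 left out, a lowest level in exercised 9-week libraries thus holds without overlap for 15 members. The other 45 had an overlap or, at rank 16, a tie. With 27-week replicate 8 put back, 12 genes had a score above 0.

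**Figure D1:**
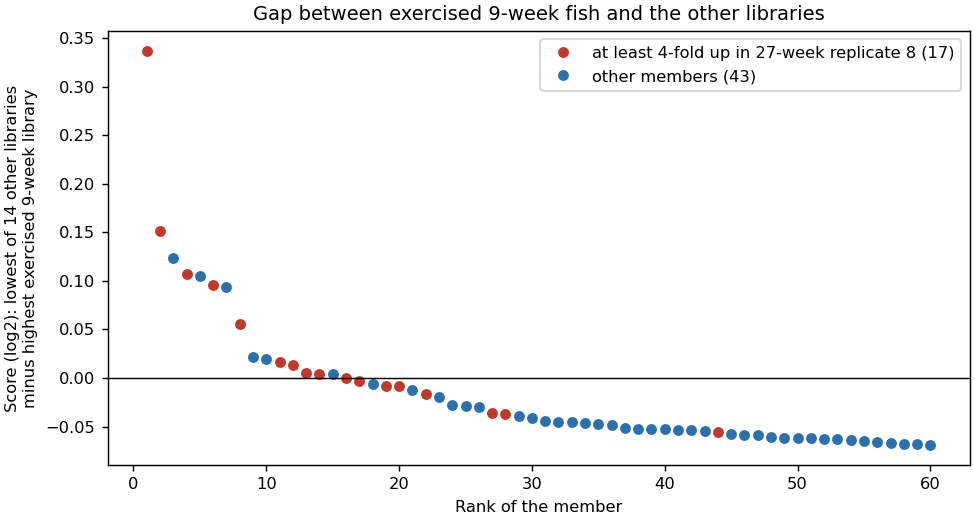
Score of each of the 60 members by rank (y axis, log2 scale), as the lowest of the 14 other libraries minus the highest exercised 9-week library. The 15 points above the line at 0 are members without overlap, of which 9 are among those at least 4-fold up in 27-week replicate 8 (red) and 6 among the others (blue), and the scores level off towards rank 60. Of the 15, 11 passed the filter without replicate 8.

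Set against each other group in turn, exercised libraries lay below all 5 unexercised libraries in 21 of the 60 members, against 0.936% of all genes, and below the 9 remaining 27-week libraries in 31, against 1.87% of all genes. Both counts are fixed in large part by the rule. Exercised replicates 1 and 3 were the highest of their group in 19 and 18 members, and unexercised replicates 4 and 3 were the lowest of the other libraries in 12 and 10. The 19 include the member ranked 16, in which all 5 exercised libraries tied at 0 counts. Exercised replicate 3 had the smallest total of all libraries, 15048627 counts.

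The library that the score left out split the members into 2 sets. Replicate 8 of the 27-week group stands apart from the rest of the series, and it took no part in the score but counted in the filter. In it, 17 of 60 members exceeded the mean of the remaining 19 libraries by 4-fold or more, against 3.24% of all 18153 genes. Part of this follows from the filter, because 5 members reached a mean of 1 CPM only through this library. Among the 55 members that passed the filter without it, 12 were at least 4-fold up, against 2.28% of the 17961 genes that did so.

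The 17 raised members stood between 29.9 and 4473 CPM in replicate 8, which was 6.15-fold to 345-fold the mean of the remaining 19 libraries on the log2(CPM + 0.5) scale. In those 19 libraries most of them were scarce, with a median level of 1.47 CPM, and 9 of the 17 stayed below 1 CPM in every exercised 9-week library. Others were not scarce, up to a mean of 20.1 CPM in Nfu_g_1_012105. Of the 17, 5 passed the filter only through replicate 8, so the filter fixes their mean in the 19 libraries below 1 CPM. These 5 are among the 9. The 43 other members had a median of 27.5 CPM, against 20.3 CPM over all genes, and in replicate 8 they differed from the mean of the 19 libraries by -1.55 to 1.27 on the log2 scale. Below that mean were 25 of the 43. These levels are on unscaled library totals, and with the TMM scaling given below (factor 0.736) replicate 8 reads higher.

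**Figure D2:**
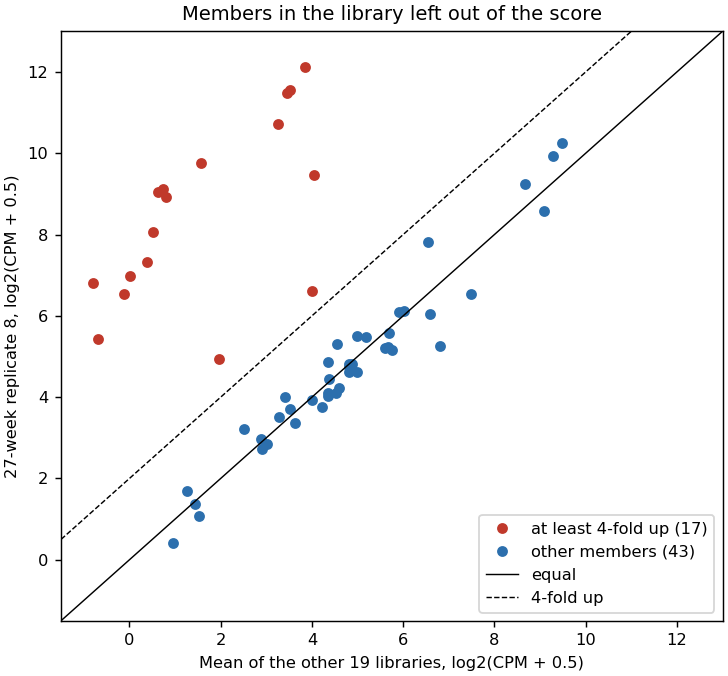
Each point is 1 member, with the mean of 19 libraries on the x axis and 27-week replicate 8 on the y axis, both as log2(CPM + 0.5). The 17 raised members (red) lie above the dashed line of a 4-fold difference, and the 43 others (blue) follow the solid line of equal levels.

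Replicate 8 was also set against the exercised 9-week libraries. Their highest level is a value that the rule chose to be low, so the counts are fixed in part by the choice of members and are a description. It lay above every exercised 9-week library in 39 of 60 members, against 15.7% of all genes, and in 34 of the 55 that passed the filter without it, against 14.8%. The 39 comprised all 17 raised members and 22 of the 43 others. With library totals scaled by TMM, which allows for a few genes that take a large share of the counts, replicate 8 had a factor of 0.736 and lay above in 55 of 60 members, against 34.8% of all genes, and in 50 of the 55 that passed the filter without it, against 34.1%. A single library that stands apart gives no test of the group.

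Summed over the 17 raised members, the level was 140 ± 28.2 CPM at 27 weeks (SD, n = 9, without replicate 8), 45.6 ± 6.40 CPM with exercise at 9 weeks (n = 5) and 97.2 ± 27.5 CPM without it at 9 weeks (n = 5). By library it ran from 107 to 200 CPM at 27 weeks, from 36.5 to 50.5 CPM in exercised 9-week libraries and upwards of 68.8 CPM in unexercised 9-week libraries, and it reached 16076 CPM in replicate 8. In these sums the exercised libraries lay below every other library, while the 27-week and unexercised libraries overlapped. The rule favours the low exercised sums by its choice of members, so this order is a description. The lowest exercised value, 36.5 CPM, belonged to replicate 2, the most deeply sequenced library with 34843199 counts. The more abundant members weigh most in these sums. At 27 weeks without replicate 8, Nfu_g_1_012105 averaged 32.1 CPM and Nfu_g_1_018732 29.0 CPM.

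For the 43 other members the sum was 3809 ± 163 CPM at 27 weeks (SD, n = 9, without replicate 8), 3269 ± 116 CPM with exercise at 9 weeks (n = 5) and 3611 ± 140 CPM without it at 9 weeks (n = 5). The range was 3509 to 4025 CPM at 27 weeks, 3157 to 3395 CPM in exercised and 3489 to 3828 CPM in unexercised 9-week libraries, with 4403 CPM in replicate 8. This set is more abundant and its differences were smaller in proportion.

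**Figure D3:**
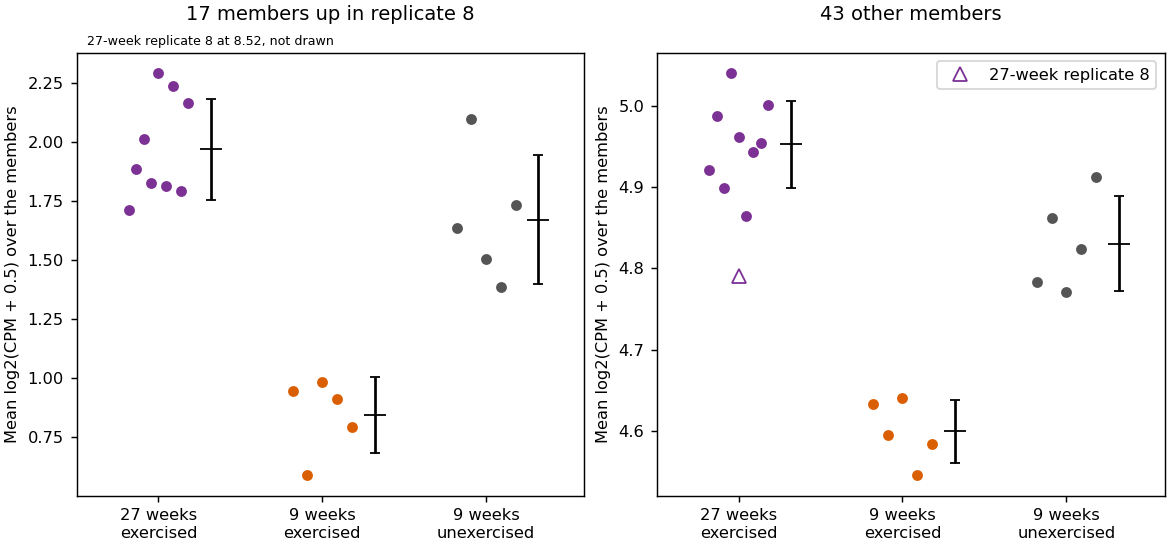
Mean log2(CPM + 0.5) over the 17 raised members (left) and the 43 others (right), 1 point per library, with the mean and SD of each group beside the points, both without 27-week replicate 8. Exercised 9-week libraries reach 0.98 (left) and 4.64 (right), below the lowest values of the other libraries, 1.38 and 4.77, while replicate 8 stands at 8.52 (left, not drawn) and 4.79 (right, triangle). The rule favours a low level in the exercised libraries, so this order is a description.

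The size of the difference also differed between the sets. The rule used these values and the sets differ in abundance, so this is a description and no separate trait. Exercised minus unexercised 9-week libraries had a median of -0.79 (range -1.86 to 0) over the 17 raised members and of -0.14 (range -0.98 to -0.01) over the 43 others, as differences of group means of log2(CPM + 0.5). The difference was smaller than 0.2 in 31 of all 60 members and at least 1 in 7, all of them raised in replicate 8. Between 27-week libraries (without replicate 8) and exercised 9-week libraries, the median difference was 1.0 in the raised members and 0.24 in the others.

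**Figure D4:**
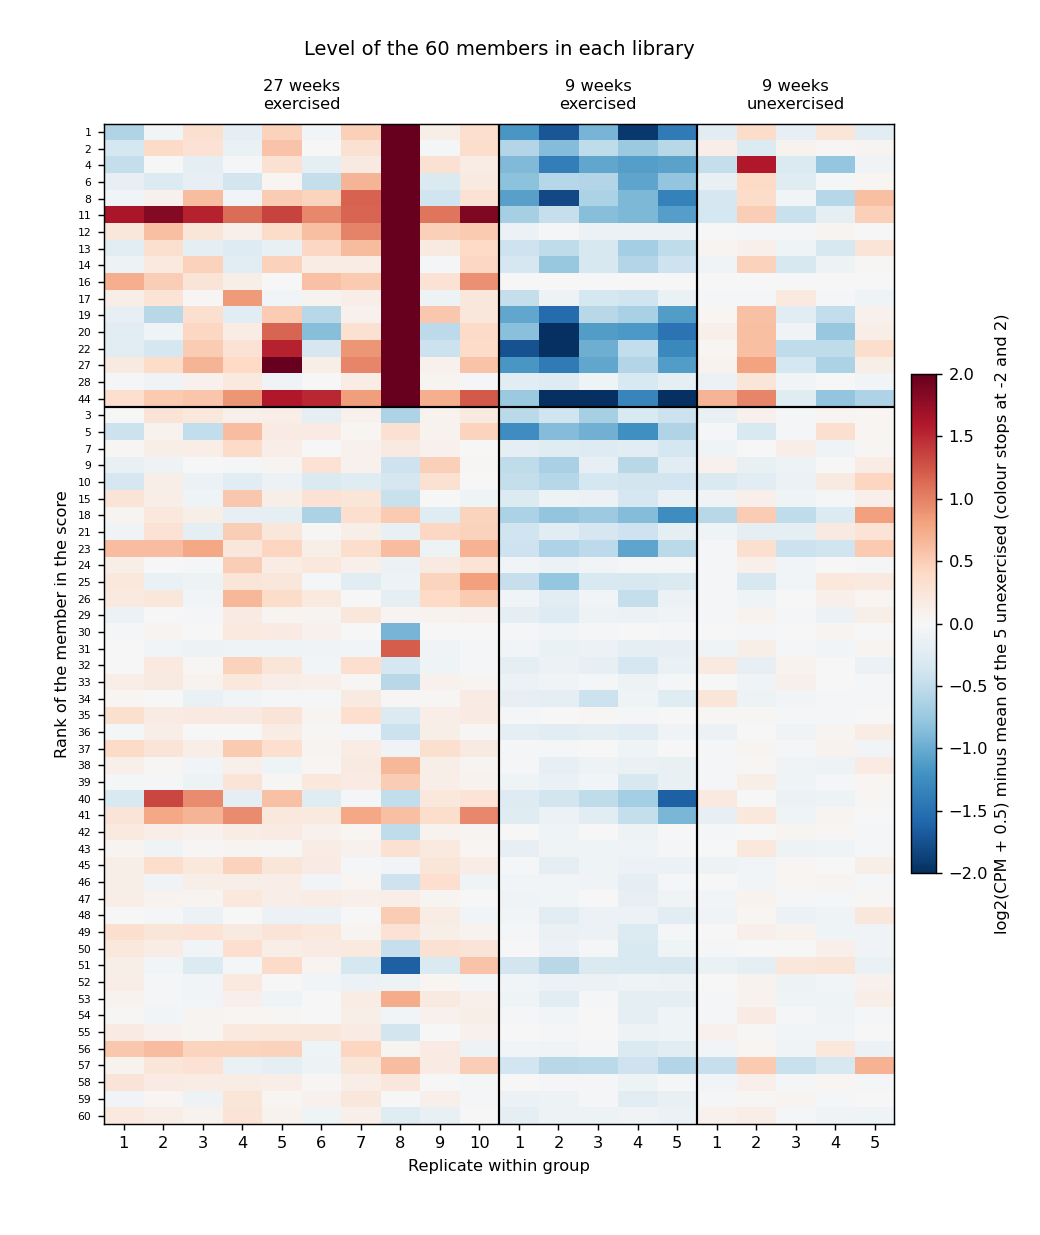
Level of each member (rows, labelled by rank) in each library (columns), as log2(CPM + 0.5) minus the mean of the 5 unexercised 9-week libraries, with colours stopping at -2 and 2. The 17 members raised in 27-week replicate 8 are above the horizontal line, where the 5 exercised 9-week columns are blue in most rows, and the 43 others below it, where most rows are pale.

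Of the raised members, Nfu_g_1_013679 had the highest score and also the largest fitted fall with exercise. Its length, worked out from counts and RPKM, was 444 bp. It had 0.433, 0.144, 0.598, 0.0486 and 0.285 CPM in the exercised 9-week libraries, from 1 to 9 counts, against 1.30, 2.21, 1.37, 1.98 and 1.30 CPM in the unexercised 9-week libraries, from 29 to 59 counts. At 27 weeks it ranged from 0.887 to 2.41 CPM with a median of 1.77 CPM in 9 libraries, and stood at 552 CPM in replicate 8. The exercised libraries were low without overlap and the other 9-week and 27-week libraries shared 1 range. Its log2 fold change of exercised over unexercised libraries was -2.56 (SE 0.43, edgeR quasi-likelihood test, adjusted p = 0.0897).

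Nfu_g_1_025591, second in score and 7021 bp long, had 0.596, 0.402, 0.665, 0.486 and 0.628 CPM in exercised 9-week libraries, against 1.30, 0.862, 1.24, 1.18 and 1.22 CPM in unexercised 9-week libraries. The 27-week libraries without replicate 8 lay between 0.794 and 1.96 CPM with a median of 1.52 CPM, and replicate 8 at 531 CPM. No exercised library reached the lowest of the others. Its log2 fold change of exercised over unexercised libraries was -1.11 (SE 0.20, edgeR adjusted p = 0.106).

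Nfu_g_1_022380 had the second-largest fitted fall with exercise, but 1 library weighs on it. It had 0.650, 0.316, 0.532, 0.486 and 0.513 CPM in exercised 9-week libraries, against 1.03, 5.96, 1.24, 0.739 and 1.52 CPM in unexercised 9-week libraries, where replicate 2 stood far above the other 4. In 27-week libraries it ranged from 1.03 to 2.14 CPM without replicate 8, and replicate 8 had 485 CPM. The log2 fold change of exercised over unexercised libraries was -2.11 (SE 0.59, edgeR adjusted p = 0.228), and without unexercised replicate 2 it was -1.23 (edgeR adjusted p = 0.202).

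Nfu_g_1_018732, Nfu_g_1_009697, Nfu_g_1_015248, Nfu_g_1_007913, Nfu_g_1_011977 and Nfu_g_1_012105 were singled out after their values were seen. The first of these, Nfu_g_1_018732, ranked 44 in score and had the highest level of any raised member in replicate 8, at 4473 CPM. It had 8.5, 1.84, 2.59, 5.55 and 2.57 CPM in exercised 9-week libraries, against 23.5, 29.2, 12.2, 8.16 and 9.30 CPM in unexercised 9-week libraries. The highest exercised and the lowest unexercised libraries overlapped. At 27 weeks it ranged from 18.4 to 45.3 CPM without replicate 8. Its mean was the highest at 27 weeks, at 29.0 ± 9.61 CPM (SD, n = 9, without replicate 8), against 4.21 ± 2.79 CPM with exercise (n = 5) and 16.5 ± 9.36 CPM without it (n = 5) at 9 weeks.

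Of the 43 members that were not raised, Nfu_g_1_009697 had the largest difference with exercise, at a level above the median of the raised members. It had 15.1, 19.7, 18.4, 15.4 and 23.9 CPM in exercised 9-week libraries, from 277 to 688 counts, against 35.9, 29.6, 35.6, 45.4 and 37.5 CPM in unexercised 9-week libraries. At 27 weeks it ranged from 25.8 to 56.2 CPM with a median of 39.6 CPM in all 10 libraries, and replicate 8 was among them at 45.2 CPM. All 5 exercised libraries were below all 15 others. Its log2 fold change of exercised over unexercised libraries was -1.02 (SE 0.15), with an adjusted p of 0.0425 by edgeR. The call was lost in 9 of 10 fits that left out 1 library, all but that without exercised replicate 5, at adjusted p from 0.0512 to 0.134. It was also lost with all 20 libraries in the fit (edgeR adjusted p = 0.305).

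Nfu_g_1_015248 had the highest score of the members that were not raised, at a level near 1 CPM. It had 0.921, 1.06, 0.797, 1.17 and 1.03 CPM in exercised 9-week libraries, from 12 to 37 counts, against 1.35, 1.69, 1.51, 1.65 and 1.61 CPM in unexercised 9-week libraries. The 27-week libraries lay between 1.32 and 1.97 CPM without replicate 8, which was lower than them at 0.840 CPM and within the exercised range. Its log2 fold change of exercised over unexercised libraries was -0.66 (SE 0.15, edgeR adjusted p = 0.169).

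At the other end, Nfu_g_1_007913 had the smallest fitted difference with exercise among the members tested. It had 21.7, 21.8, 22.3, 21.4 and 22.1 CPM in exercised 9-week libraries, against 22.3, 22.3, 21.7, 21.6 and 22.2 CPM in unexercised 9-week libraries. These groups covered nearly the same range. Its mean at 27 weeks was 25.4 ± 1.63 CPM (SD, n = 9, without replicate 8), and the SD within each 9-week group was 0.378 CPM with exercise and 0.335 CPM without it. The log2 fold change of exercised over unexercised libraries was -0.03 (SE 0.05, edgeR adjusted p = 0.853).

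The last member, Nfu_g_1_011977, had 17.6, 18.5, 18.5, 18.9 and 18.3 CPM in exercised 9-week libraries, against 21.1, 21.8, 19.3, 18.9 and 18.7 CPM in unexercised 9-week libraries, and 18 to 24.1 CPM at 27 weeks without replicate 8. Each pair of groups overlapped. Its difference of exercised from unexercised libraries in mean log2(CPM + 0.5) was -0.11, beside a median of -0.14 over the 43 members.

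Across all genes, exercise at 9 weeks was tested with edgeR's quasi-likelihood test, and a gene passed at a Benjamini-Hochberg adjusted p below 0.05. Of the members, 56 entered the test, and all 56 had a fitted log2 fold change below 0, with a median of -0.22 against -0.0022 over all 19123 genes. Of the 56, 1 fell past the threshold (Nfu_g_1_009697), against 0.0784% of all genes that fell. Before adjustment 42 members had p below 0.05 and were lower, against 6.33% of all genes. DESeq2 called 15 members lower, 11 of them raised in replicate 8, against 0.866% of the genes it tested. The rule used this contrast, so the counts describe the choice of members.

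In the members tested, exercised 9-week libraries were also lower than 27-week libraries, so fitted fold changes of 27 weeks over them were above 0. Of 58 members tested, 13 rose at 27 weeks over exercised 9-week libraries by the edgeR test, against 1.16% of all genes. By the same test 0 fell, against 0.998%. Before adjustment, 46 members had an edgeR p below 0.05, all of them higher, beside 4407 of 19531 genes in either direction. The 13 were all among the 43 members not raised in replicate 8. Without replicate 8, 30 members rose, 13 of them from the raised set, against 2.57% of all genes. Both comparisons share the exercised libraries, and the rule used this contrast too. When 1 exercised replicate was left out, the members that rose numbered 3, 2, 3, 0 and 4 without replicates 1 to 5, against 0.254%, 0.122%, 0.34%, 0.0% and 0.508% of all genes. Without exercised replicate 4, 43 members had an unadjusted p below 0.05 by edgeR, beside 3144 of 19668 genes in either direction. Without 27-week replicate 2, 4 members rose, against 0.515% of all genes, and without 27-week replicate 5, 5 rose, against 0.482%.

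The third comparison leaves out the exercised 9-week libraries and sets 27-week libraries against unexercised 9-week libraries. The rule did not set these groups against each other, although it held the lowest value of both high. The comparison asks whether the members differ between exercised 27-week and unexercised 9-week brains. Age and exercise both differ between these groups, so their parts cannot be told apart here. Of 58 members tested, 1 was higher at 27 weeks by the edgeR test, against 2.57% of all genes, and 0 were lower, against 1.79%. Without replicate 8, 2 were higher, against 4.62% of all genes, and 0 were lower, against 3.3%. These shares of 58 are near or below those of all genes. In counts simulated for this comparison with all 27-week libraries, edgeR recovered 13.4% of 1.5-fold and 46.3% of 2-fold changes. The changed genes were drawn at random and not from the members, so this does not give the recovery for the members. Among the 43 members not raised in replicate 8, the SE of the fitted log2 fold change ran from 0.039 to 0.296 with all libraries. At an unadjusted edgeR p below 0.05, 0 members were lower with all libraries and 1 without replicate 8. Over all genes, 4950 of 19591 had such a p in either direction with all libraries, 2864 of them higher. Without replicate 8 the count was 5156 of 19519, with 2880 of them higher. DESeq2 called 4 of 59 members higher, against 5.99% of all genes, and 0 lower, against 4.11%. When 1 library was left out, edgeR called 0 to 3 members, with 3 of 58 without 27-week replicate 6, against 3.33% of all genes.

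The member that passed was Nfu_g_1_006113. It had a median of 2.82 CPM (1.93 to 3.64 CPM) in the 10 libraries of 27 weeks, against 1.39, 1.95, 1.51, 1.71 and 1.61 CPM in the unexercised 9-week libraries. The lowest 27-week libraries and the highest unexercised libraries overlapped narrowly. Its log2 fold change of 27 weeks over unexercised 9 weeks was 0.76 (SE 0.19, edgeR adjusted p = 0.0405), and the call was lost without any 1 of the 5 unexercised replicates, at adjusted p from 0.0687 to 0.121. Leaving out replicate 2, 3, 4 or 7 of the 27-week group also ended it (edgeR adjusted p of 0.0521 to 0.0622). In exercised 9-week libraries it had 1.30, 1.46, 1.33, 1.02 and 0.628 CPM, so the 3 groups were ordered with 27 weeks highest and exercised 9 weeks lowest.

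The second gene, Nfu_g_1_012105, passed without replicate 8. It had a median of 30.3 CPM (23.2 to 43.5 CPM) in those 9 libraries of 27 weeks, against 8.98, 16.6, 8.40, 10.2 and 16.3 CPM in unexercised 9-week libraries, with 702 CPM in replicate 8. All 27-week libraries lay above all 9-week libraries, and the exercised 9-week libraries were lower still, at 7.15, 8.29, 6.25, 5.98 and 5.13 CPM. Without replicate 8 its log2 fold change of 27 weeks over unexercised 9 weeks was 1.38 (SE 0.21, edgeR adjusted p = 0.00407). With all 10 libraries it was 3.36 (SE 1.13, edgeR adjusted p = 0.0912) and did not pass.

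**Figure D5:**
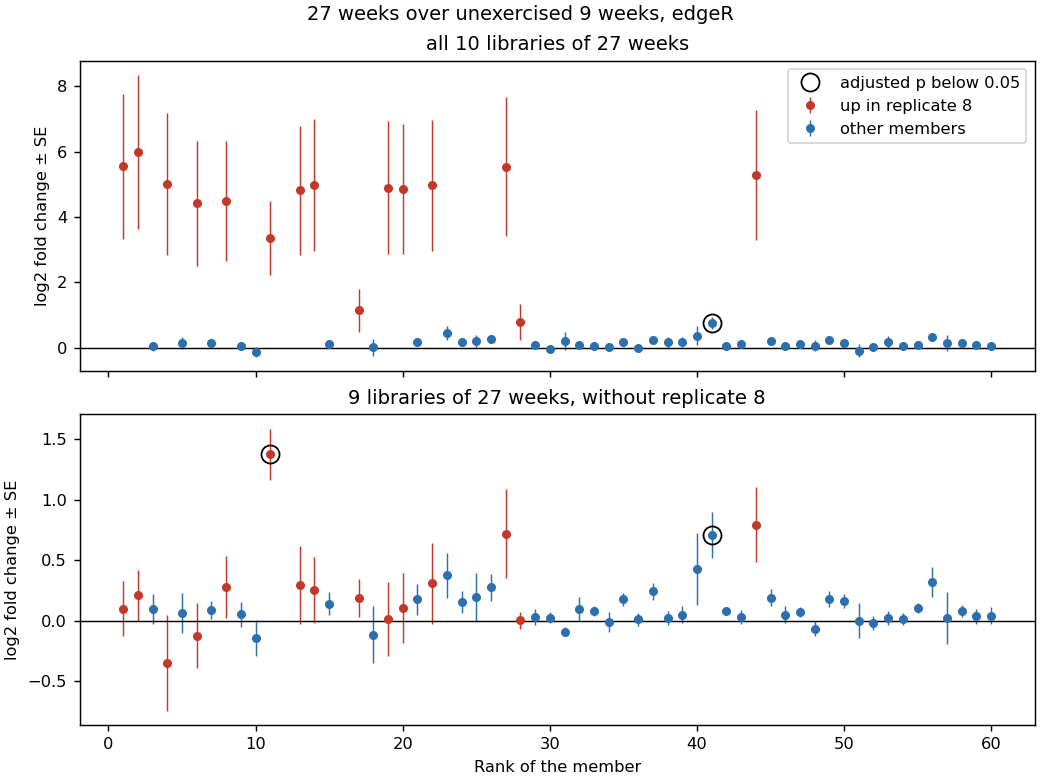
Fitted log2 fold change of 27 weeks over unexercised 9 weeks for 58 members by rank, with SE as bars, for all 10 libraries of 27 weeks (top) and without replicate 8 (bottom). The raised members (red) have a median of 4.89 at the top and of 0.21 at the bottom, and the ringed members passed the threshold, 1 at the top and 2 at the bottom.

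In direction, 55 of the 58 members were higher at 27 weeks than in unexercised 9-week libraries in this fit, against 52.1% of all genes, and 50 were higher without replicate 8, against 50.8%. The median log2 fold change of the members was 0.17, or 0.09 without replicate 8, against 0.01 and 0.0040 over all genes. The rule asked for a high lowest value over 9 libraries of 27 weeks and over 5 unexercised libraries. The lowest of more libraries tends to be lower, so the rule favours a higher mean at 27 weeks. Direction and median are thus fixed in part by the choice of members and are a description. Unadjusted p below 0.05 with a higher level at 27 weeks was found in 23 members, against 14.6% of all genes, and in 12 without replicate 8, against 14.8%. Without overlap, the 9 libraries of 27 weeks lay above all 5 unexercised libraries in 3 of 60 members, against 3.51% of all genes. The 15 raised members tested had log2 fold changes from 0.79 to 5.99 with all 10 libraries, at adjusted p from 0.0912 to 0.387, and from -0.35 to 1.38 without replicate 8.

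After each group was centred on its own mean, the mean pairwise Pearson correlation over 19 libraries without replicate 8 was 0.23 among the 17 raised members, 0.10 among the 43 others, 0.04 between the sets and 0.01 among all 18153 genes. Within the 5 unexercised 9-week libraries it was 0.27 among the raised members, within the 9 libraries of 27 weeks 0.21 and within the 5 exercised 9-week libraries 0.11. In the same order it was 0.06, 0.09 and 0.11 among the others, and 0.11, -0.01 and 0.12 between the sets. Within the exercised libraries the sets were thus not set apart by this value. Points within a library share its depth, and most of the raised members have few counts, so these values are a description. The highest summed level of the raised members outside replicate 8 was 200 CPM, in 27-week replicate 5.

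The median length of the members was 2108 bp (300 to 11777 bp), against 2765 bp over all 18153 genes, with 2338 bp in the raised members and 2046 bp in the others. Per kilobase of that length, their mean level in exercised 9-week libraries ran from 0 to 2042 CPM per kb with a median of 7.84, and in unexercised 9-week libraries from 0 to 2262 CPM per kb with a median of 10.5. The members thus span genes with few or no counts and genes with high levels. For the member with 0 counts in all 9-week libraries, the other 27-week libraries had 0 to 11 counts and replicate 8 had 3168.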

How the data were processed

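The deposited tables hold whole-number counts and RPKM of every gene for 20 libraries, matched to samples by column title. Tools listed in the submitters' processing notes, without role or order, are featureCounts 1.4.6-p4, STAR 2.4.1d and bcl2fastq 1.8.4. Build, annotation and strand setting were not given in the sources used here, so reads of near-identical, overlapping or antisense genes cannot be told apart. Per the labels' protocols, the library kit was TruSeq RNA v2.

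In the deposited RPKM values, library totals were applied in turn down the table. The gene length they imply varied between libraries with a log2 SD of 5.64e-05 when this was allowed for, and of 0.42 with each library's own total (10327 genes). RPKM values therefore served for gene lengths and for no level.

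Members and lists were chosen with earlier results of these data known. Each pair of groups was compared on its counts with edgeR 4.0.16 (R 4.3.3), with filterByExpr, TMM factors and the two-sided quasi-likelihood test, adjusted over all genes tested. SEs are the fold change divided by the square root of F. DESeq2 1.42.0, other scalings and filters, all 20 libraries and leaving out each replicate were alternatives. The edgeR and DESeq2 steps were tested on simulated counts. Of 1.5-fold changes, edgeR recovered 43.3% with exercise, 1.49% at 27 weeks over exercised and 13.4% at 27 weeks over unexercised 9 weeks. DESeq2 recovered 49.3%, 5.97% and 16.4% in the same order. Of 2-fold changes, edgeR recovered 83.6%, 38.8% and 46.3%, and DESeq2 86.6%, 47.8% and 49.3%. The rule for named genes gave the 2 members of highest score, the 2 of largest fitted fall with exercise and, of those past the threshold at 27 weeks over unexercised 9 weeks, up to 2 rises and 2 falls (there was 1 rise and 0 falls). Other named members were singled out after their values were seen. No 2 replicates agreed within sampling noise (lowest chi-square per degree of freedom 7.57).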

Additional observations from a re-analysis of the deposited data

Results flagged for a closer look

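A single library stood far from the rest of its group in 9 of 36 groups of values looked at, by the gap to its nearest neighbour relative to the range of the group. The limit is Dixon's 95% critical value, which by its construction flags about 1 in 20 normally distributed groups by chance. Of the 9, 7 were 27-week replicate 8, and these are not independent, since they come from 1 library. It had 552 CPM of Nfu_g_1_013679, 531 CPM of Nfu_g_1_025591, 485 CPM of Nfu_g_1_022380, 702 CPM of Nfu_g_1_012105 and 4473 CPM of Nfu_g_1_018732. Summed over the 17 members that were at least 4-fold up in it, the level was 16076 CPM, where the choice of these members fixes the direction. It was the lowest 27-week library for Nfu_g_1_007913, at 18.2 CPM. That value is on library totals without TMM scaling. Replicate 8 had a TMM factor of 0.736, so its levels are higher with that scaling. Whether it stays apart for this gene with TMM scaling was not tested. Unexercised 9-week replicate 2 had 5.96 CPM of Nfu_g_1_022380, the highest of its group, and 0.862 CPM of Nfu_g_1_025591, the lowest of its group.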

How the results depend on the processing

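Which genes the rule chooses depends on single libraries. Of the 60 members, 23 to 58 were kept when 1 of the 19 libraries was left out, with 23 kept without exercised replicate 3 or 5, 30 without exercised replicate 1 and 35 without unexercised replicate 1 or 4. With the difference of group means in place of the gap, 8 were kept. Put back, 27-week replicate 8 left 44, TMM scaling 43 and a pseudocount of 2 left 44. With the mean of 1 CPM taken over 19 libraries, an alternative chosen after seeing the data, 55 were kept. Counts over genes that passed the filter without replicate 8 were likewise chosen after seeing the data.

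The 1 member called lower with exercise became 0 with all 20 libraries in the fit (0.0% of all genes fell) and 15 with DESeq2 (0.866%), and 0 to 1 when 1 replicate was left out. It stayed called without exercised replicate 5. The 13 members called higher at 27 weeks over exercised 9 weeks became 23 with all 20 libraries (3.02% of all genes rose), 39 with DESeq2 (4.1%) and 6 without scaling factors (0.282%). When 1 replicate was left out they were 0 to 30: 3, 2, 3, 0 and 4 without exercised replicates 1 to 5, 4 and 5 without 27-week replicates 2 and 5, and 30 without replicate 8, while 0.0% to 2.57% of all genes rose. The 1 member called at 27 weeks over unexercised 9 weeks became 4 with all 20 libraries (4.96% of all genes rose), 4 with DESeq2 (5.99%), 0 without a filter (1.57%) and 0 without scaling factors (0.464%). It was 0 to 3 when 1 replicate was left out, with 0 without any 1 unexercised replicate or 27-week replicate 2, 3, 4 or 7, 3 without 27-week replicate 6 and 2 without replicate 8. The cause was not tested. Replicate 8 lay above every exercised libraries in 39 to 40 members when 1 exercised replicate was left out, and the median length was 1846 bp for the members of at least 5 CPM. For the named members, 0 fold changes reversed in sign with either value past the threshold. Under other settings 26 values were newly past it, 32 no longer past it and 492 kept their call. No paired analysis was made, because the labels used here give no pairing of libraries across groups. The column titles carry library numbers, and replicates are numbered here in the order of those titles within each group.

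Members below 1 CPM rest on few counts (1 to 9 per exercised library for the first member), where small differences were not detectable at this depth.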

Other observations

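Outside the members, 571 genes of at least 1 CPM were also at least 4-fold up in 27-week replicate 8, and 397 of them reached 1 CPM without that library. In the 571, exercised 9-week libraries were lower than unexercised 9-week libraries in 409 genes by their mean log2(CPM + 0.5), or 71.6%, against 44.7% of all 18153 genes. Among the 397, they were lower in 272 genes, or 68.5%, against 44.4% of the 17961 genes with that mean without replicate 8. The median difference over the 571 was -0.14, against 0.02 over all genes. The 27-week libraries without replicate 8 were higher than unexercised 9-week libraries in 66.4% of the 571, with a median difference of 0.12, against 55.5% and 0.03 over all genes, and in 64.7% of the 397, against 55.3%. The genes are not independent of each other, these values carry no test, and the source of the RNA in replicate 8 was not tested.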
